A study of Xenopus laevis with 31 samples.

Results

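Explants of the vegetal region, which forms endoderm, were compared with animal caps, which form ectoderm, in gastrulae of the African clawed frog Xenopus laevis. The comparison rests on 5 of the 31 arrays of the series, chosen by the condition named for each sample: 2 labelled vegetal endoderm and 3 labelled animal cap, all collected at stage 11. Per the labels the caps were dissected at stage 9, and the deposited checklist adds that they were cultured to stage 11, whereas no dissection stage is given for the vegetal explants, so tissue and time in culture cannot be told apart. Each explant sample pooled about 50 explants of sibling embryos, without injection or treatment in the labels.

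The other arrays gave the levels elsewhere in the embryo. They were equatorial explants (n = 2), stage 11 control gastrulae (n = 9), eggs (n = 3) and stage 18 control embryos (n = 4). The remaining gastrulae had been injected vegetally early in cleavage. They received 1 ng of Cerberus-Short RNA (n = 3), 40 ng of a morpholino against Mixer (n = 2, of which 1 array title gives another dose), or 3 morpholinos against Sox17 genes at 20 ng each (n = 3). Whole-embryo samples pooled about 20 embryos, and no control RNA or control morpholino is named in the labels. The comparison addresses which transcripts are enriched in the endoderm of the gastrula.

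In the frog embryo the vegetal pole inherits maternal determinants, and its cells send nodal ligands, secreted proteins of the TGF-beta family, to the equatorial zone. Nodal signalling in vegetal cells turns on the endodermal transcription factors, among them the Mix-like homeodomain proteins, the GATA factors and Sox17. Animal cap cells lie outside the range of these signals in the intact gastrula and form epidermis when cultured alone, under the influence of BMP ligands. Cerberus-Short is a truncated form of Cerberus that binds and blocks nodal ligands.

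Affymetrix Xenopus arrays were used, on which a probe set measures 1 transcript or a group of related ones. The first number in its identifier is a cluster of expressed sequences. Genes could not be named, because the tables used here pair no probe set with a gene, so the tissue labels could not be tested on defining markers of endoderm and ectoderm. Some control probe sets carry a gene in their names, among them those for beta-actin and GAPDH given below. Another, AFFX-Xl-a3Act-M_s_at, is for an alpha-actin. It read 13.0 and 11.4 in the vegetal explants, 13.3, 14.5 and 18.2 in the caps and from 393 to 1954 at stage 18, so that message of muscle actin was low in both explants.

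Vegetal levels exceeded cap levels for 993 of 15443 probe sets (6.43%) and fell short of them for 1025 (6.64%), at a limma Benjamini-Hochberg adjusted p under 0.05 and a 2-fold minimum. At 16-fold and above there were 68 vegetal-higher and 31 vegetal-lower probe sets, while between 4-fold and 8-fold there were 155 and 320. Without vegetal replicate 2 the counts were 81 and 33 above 16-fold and 125 and 82 between 4-fold and 8-fold, so the excess of vegetal-lower probe sets in the latter class rested on that array. Among the 68, the median log2 level was 9.56 in vegetal explants and 4.22 in caps. Among the 31, it was 4.99 in vegetal explants and 9.43 in caps. The probe sets with the largest differences were therefore bright in 1 tissue and near the low end of the array in the other. Intensities below 16 on average were read by 155 of the 993 in caps and by 86 of the 1025 in vegetal explants, and the folds of these are uncertain in size. In pooled tissue, fewer cells of a type and less RNA per cell cannot be told apart. Both vegetal arrays lay above all 3 cap arrays for 991 of the 993, and both lay below for 1008 of the 1025. Over all probe sets tested, 28.5% had every vegetal value above every cap value and 19.9% the reverse.

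**Figure D1:**
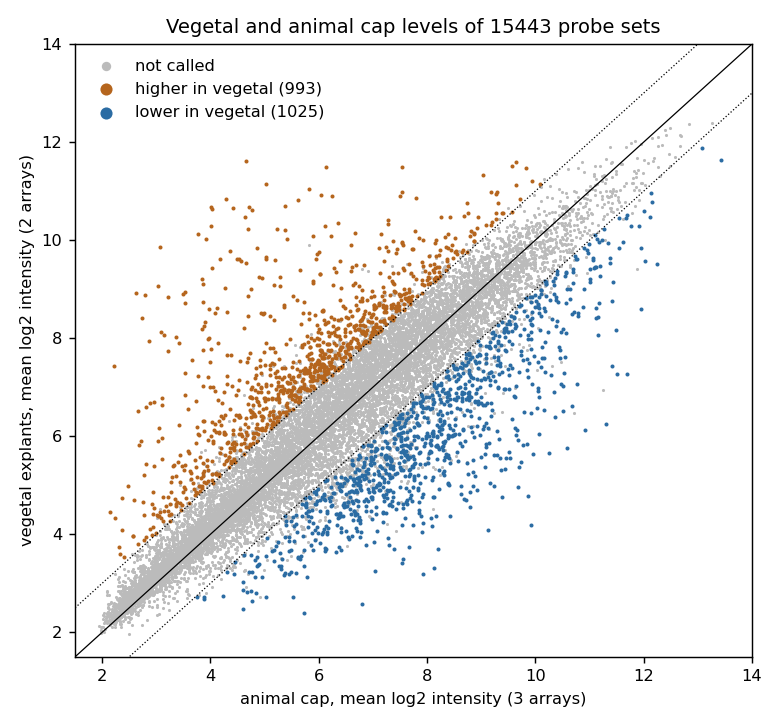
Mean log2 intensity in 2 vegetal arrays (vertical axis) against 3 animal cap arrays (horizontal axis) for the 15443 probe sets tested. The solid line marks equal levels, the dotted lines a 2-fold difference, brown points the 993 called higher and blue points the 1025 called lower in vegetal explants; brown points reach farther from the line at low cap levels.

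The 2 vegetal arrays differed from each other more than the caps did. A difference of 2-fold or more separated vegetal replicates 1 and 2 for 2100 probe sets, against 375, 1037 and 1212 for the 3 pairs of caps and a median of 1284 (330 to 3358) for the 36 pairs of control gastrulae. Vegetal replicate 1 shares the letter B in its array title with cap replicates 1 and 2, whereas vegetal replicate 2 carries the letter H and cap replicate 3 the letter I. What the letter stands for is not stated. The difference within letter B and the difference between vegetal replicate 2 and cap replicate 3 share no array. Across all 15443 probe sets these 2 estimates had Pearson's r = 0.679 and Spearman's rho = 0.589, given as a description since probe sets are not independent and all arrays were normalized together. Both estimates reached 2-fold in the called direction for 684 of the 993 vegetal-higher and 687 of the 1025 vegetal-lower probe sets, counts that the calls themselves favour.

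**Figure D2:**
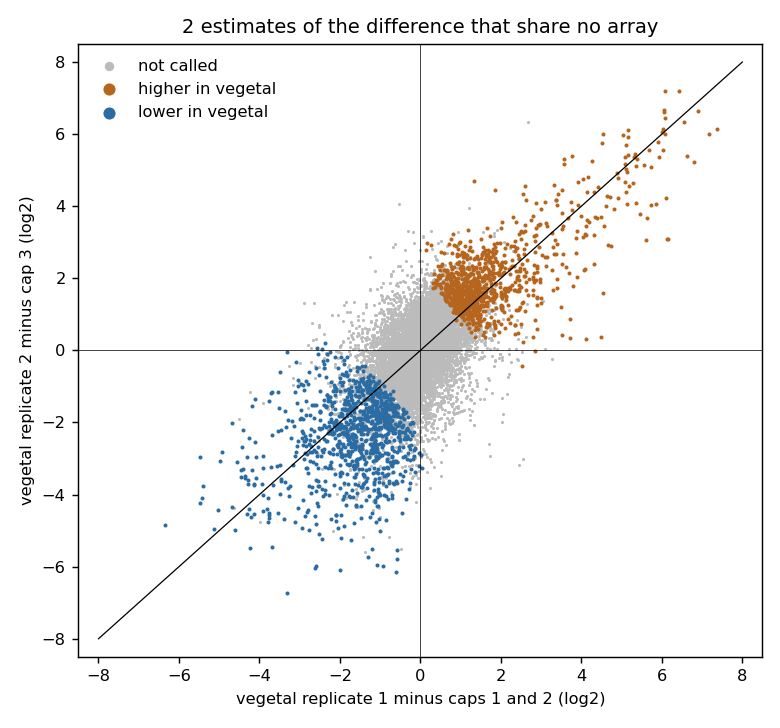
Log2 difference of vegetal replicate 1 from cap replicates 1 and 2 (horizontal axis) and of vegetal replicate 2 from cap replicate 3 (vertical axis) for all probe sets tested, with calls coloured. The largest vegetal-higher differences lie along the line of equality, while many vegetal-lower points lie below it, where vegetal replicate 2 shows the larger difference.

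Vegetal-lower calls leaned on vegetal replicate 2. Without that array 225 were called, of which 212 are among the 1025, and 440 were called vegetal-higher, of which 408 are among the 993. The same array stood apart in a measure of RNA integrity, the 3' minus the 5' beta-actin probe set on the log2 scale. That difference was 1.70 in vegetal replicate 2, -1.50 in vegetal replicate 1 and -3.18, -3.65 and -2.59 in the caps. The 5' probe set read 109 and 30.5 in vegetal replicates 1 and 2, against 686 to 2810 in the caps, and the 3' probe set 38.6 and 99.2. Between vegetal explants and caps, a low level of the message and RNA integrity cannot be told apart in this measure. The same measure for GAPDH was 2.75 in vegetal replicate 2 and 2.39 in replicate 1, above the caps at 1.68, 1.84 and 2.09. Among control gastrulae only replicates 7 (3.90) and 9 (3.04) exceeded vegetal replicate 2 in it. The middle beta-actin probe set, AFFX-Xl-bAct-M_s_at, read 59.7 in vegetal replicate 2, 658 in vegetal replicate 1 and 2197, 1837 and 5466 in the caps. Control gastrulae allow a comparison without explants. Control replicate 7, with the highest beta-actin difference of the 9 (0.90), read at least 2-fold below the median of the other 8 for 329 of the 1025 vegetal-lower probe sets (32.1%), against 6.26% of all probe sets tested. The vegetal-higher set moved on the same array, with 110 of 993 (11.1%) at least 2-fold above, against 4.75% of all. These were 84 of the 585 (14.4%) not called without vegetal replicate 2 and 26 of the 408 (6.37%) also called without it. In control replicate 9, with the next highest difference (-0.39), the vegetal-lower count was 151 (14.7%, against 6.84% of all). The vegetal-higher set had 53 of 993 (5.34%, against 4.11% of all) at least 2-fold above, with a median of -0.16 log2 units. These were 22 of the 585 (3.76%) and 31 of the 408 (7.60%), the reverse order of control replicate 7. In the other 7 controls the vegetal-lower count ran from 1 to 68. The 68 (6.63%, against 1.82% of all) were in control replicate 6, which has letter H and a beta-actin difference of -2.16. In it 52 of the 993 (5.24%, against 2.55%) were at least 2-fold above. Of the 212 also called without vegetal replicate 2, 32 (15.1%) were lower in control replicate 7, and of the other 813, 297 (36.5%) were. In control replicate 9 the counts were 5 (2.36%) of the 212 and 146 (18.0%) of the 813. The fit without vegetal replicate 2 still takes its spread from these controls. Probe sets that vary among controls pass less readily in it, so these splits are given as a description. The part of RNA integrity in the calls was not tested.

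The 12 vegetal-higher probe sets with the largest differences, 1 per cluster, are given by their intensities in vegetal replicates 1 and 2 and cap replicates 1, 2 and 3, in that order. Xl.44.1.S1_s_at read 3200 and 3054 in vegetal explants and 18.1, 20.4 and 43.6 in caps, a log2 difference of 6.95 ± 0.53 (SE; limma, adjusted p = 5.60e-10). Xl.1929.1.A1_at read 731 and 1189 against 9.62, 7.61 and 8.16. Xl.824.1.S1_at read 2165 and 1232 against 13.4, 24.9 and 12.4. In these 3 every vegetal value lay far above every cap value. All 3 were also read in equatorial explants, where Xl.44.1.S1_s_at gave 160 and 127, Xl.1929.1.A1_at 192 and 150, and Xl.824.1.S1_at 436 and 385.

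Xl.3793.2.S1_a_at read 2293 and 1092 against 14.8, 17.1 and 16.9, and Xl.5999.1.A1_at read 1439 and 873 against 15.3, 15.6 and 10.8. Xl.1108.1.S1_at read 1182 and 1304 against 16.9, 18.8 and 13.4, and Xl.183.1.S1_at 1446 and 1820 against 22.0, 21.2 and 20.9. In equatorial explants these 4 spread widely. Xl.1108.1.S1_at gave 686 and 495 there, within 1.09 ± 0.70 (SE) log2 units of its vegetal level (limma, adjusted p = 0.414), while Xl.5999.1.A1_at gave 34.3 and 27.6, which did not pass against the caps (limma, adjusted p = 0.817).

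Xl.3831.1.S1_at read 1289 and 850 in vegetal explants against 12.0, 14.2 and 20.1 in caps. Xl.397.1.S1_at read 438 and 510 against 6.63, 6.79 and 7.24, and Xl.6392.1.A1_at 571 and 508 against 7.65, 9.25 and 7.85. Cap values under 10 that were written with 3 decimals could also stand for values 1000-fold larger, and were settled by the other values of the same probe set. Of the 10 probe sets named so far, all were called lower in the egg than at stage 11 (limma, adjusted p under 0.05, 2-fold minimum). Egg intensities of Xl.6392.1.A1_at were 7.90, 7.64 and 7.68, as low as in the caps, and those of Xl.44.1.S1_s_at were 16.9, 16.1 and 16.6.

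Another 2 of the 12 were present in the egg and higher there than at stage 11. Xl.7252.1.S1_at read 447 and 527 in vegetal explants, 6.37, 7.12 and 5.21 in caps and 6.08 and 5.86 in equatorial explants, and 374, 350 and 339 in the egg. Xl.25780.1.S1_at read 3198 and 1587 in vegetal explants, 18.7, 44.2 and 42.0 in caps and 63.4 and 62.5 in equatorial explants, and 962, 2682 and 1505 in the egg. Equatorial levels of the first were as low as those of the caps, and those of the second lay above every cap value, 1.93-fold on average, without passing (limma, adjusted p = 0.991 and adjusted p = 0.956). Both were lower at stage 18 than at stage 11. Whole gastrulae read 19.4 to 128 for Xl.7252.1.S1_at, with a median of 44.4. Transcripts stored in the egg and kept at the vegetal pole are a known class in Xenopus. The egg samples give no position within the egg, so whether either probe set belongs to that class was not tested. No gene can be named here for either.

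Later in development the 12 parted. At stage 18, 8 were lower than at stage 11, 1 was higher and 3 were not called. Xl.824.1.S1_at fell to between 14.6 and 22.2 from a gastrula median of 868, a log2 difference of -5.29 ± 0.31 (SE; limma, adjusted p = 2.20e-13). The riser, Xl.6392.1.A1_at, read from 356 to 651 against a gastrula median of 240. Xl.1108.1.S1_at and Xl.183.1.S1_at read 227 to 939 and 255 to 555 and did not differ from stage 11 past the threshold.

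**Figure D3:**
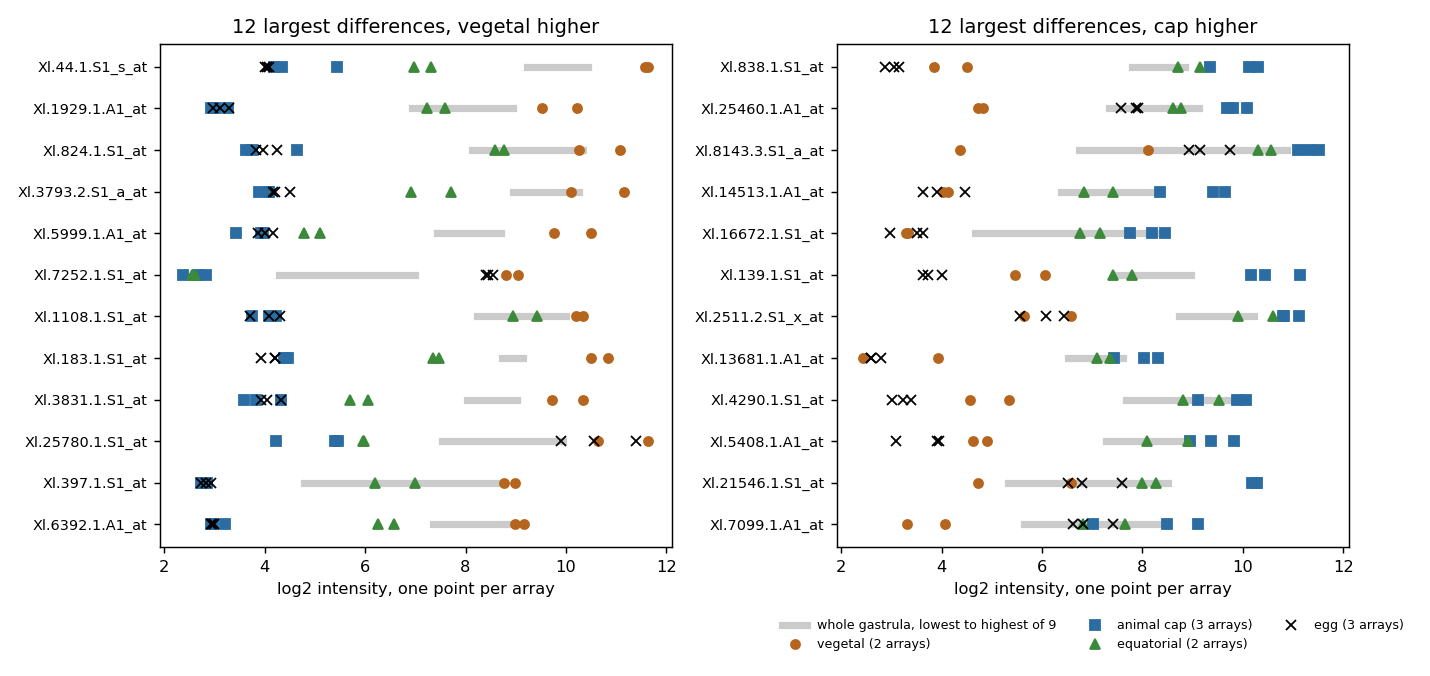
Log2 intensity of the 12 probe sets with the largest vegetal-higher (left) and vegetal-lower (right) differences, with 1 point per array for vegetal, cap, equatorial and egg samples; grey bars run from the lowest to the highest of 9 gastrulae. Egg points sit with the cap points in 10 of 12 on the left and below every cap point on the right except for Xl.7099.1.A1_at.

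Among vegetal-lower probe sets, Xl.838.1.S1_at differed most. It read 14.5 and 22.9 in vegetal explants and 1257, 1112 and 653 in caps, a log2 difference of -5.74 ± 0.55 (SE; limma, adjusted p = 2.98e-08), and 421 and 565 in equatorial explants. Xl.25460.1.A1_at read 28.4 and 26.5 against 1089, 899 and 820, Xl.14513.1.A1_at 16.4 and 17.4 against 796, 675 and 327, and Xl.16672.1.S1_at 9.74 and 10.0 against 348, 294 and 215. Equatorial means were within 2.01 log2 units of the cap mean in each of these 4 and did not pass against the caps, whereas all 4 were higher in equatorial than in vegetal explants.

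Xl.139.1.S1_at read 66.3 and 44.2 in vegetal explants and 2250, 1146 and 1395 in caps, and it was the only one of the 12 vegetal-lower probe sets that was also lower in equatorial explants than in caps, at 223 and 170 (log2 difference -2.98, limma, adjusted p = 6.50e-05). It was also the only one of the 12 that fell by stage 18, to between 18.9 and 27.5 from a gastrula median of 214, and its egg values were 16.1, 12.5 and 13.3. Its high level was thus seen in caps and, less so, in whole gastrulae, and at neither the earlier nor the later stage.

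Xl.13681.1.A1_at read 5.42 and 15.3 against 316, 173 and 260, Xl.4290.1.S1_at 23.8 and 40.4 against 945, 1071 and 549, and Xl.5408.1.A1_at 30.1 and 24.6 against 907, 663 and 494. Xl.2511.2.S1_x_at read 96.0 and 50.1 against 1805, 1790 and 2233, and Xl.7099.1.A1_at 9.99 and 16.7 against 552, 361 and 129. Of these 5, Xl.7099.1.A1_at was the one not lower in the egg, where it read 113, 170 and 98.2. At stage 18 it read from 385 to 600 against a gastrula median of 95.5, a rise of 2.37 ± 0.48 (SE) log2 units (limma, adjusted p = 2.10e-04). Rises at stage 18 were also called for Xl.14513.1.A1_at, Xl.16672.1.S1_at and Xl.2511.2.S1_x_at.

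Xl.8143.3.S1_a_at and Xl.21546.1.S1_at complete the 12, and in both the vegetal replicates disagreed. The first read 276 and 20.7 in vegetal explants against 2919, 2559 and 2196 in caps, and the second 95.9 and 26.4 against 1254, 1237 and 1156. Without vegetal replicate 2 neither passed (log2 difference -3.20, limma, adjusted p = 0.256, and -3.66, adjusted p = 0.129). Both were low on other arrays with a high beta-actin 3' to 5' difference. In Mixer-MO replicate 2, where that difference was 1.49, they read 56.8 and 38.9, against 948 and 406 in Mixer-MO replicate 1 (-2.68). In Cerberus-Short replicate 2 (0.43) they read 183 and 39.0, against 1353 and 514 in replicate 1 (-2.68). Across the 9 control gastrulae Xl.8143.3.S1_a_at ran from 107 to 1884. The part of RNA integrity in these 2 differences was not tested.

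Levels in the egg showed when the transcripts were present. Over all probe sets tested, 10.5% were lower in the egg than at stage 11 and 11.4% were higher (limma, adjusted p under 0.05 and 2-fold). Of the 993 vegetal-higher probe sets, 201 were lower in the egg (20.2%) and 198 were higher (19.9%). Without vegetal replicate 2 the shares were 34.3% lower and 13.2% higher of 440, the second near the background. The split changed with the size of the vegetal difference, and so did the level. The median vegetal log2 level was 7.40, 7.52, 8.51 and 9.56 from the smallest class to the largest, against 6.15 over all tested. A low level at stage 11 leaves little room for a lower call elsewhere. The part of level in these shares, and in those at stage 18 and with Cerberus-Short below, was not tested. Those lower in the egg made up 9.40% of the 713 probe sets between 2-fold and 4-fold, 28.4% of the 155 between 4-fold and 8-fold, 68.4% of the 57 between 8-fold and 16-fold and 75% of the 68 above. Those higher in the egg made up 21.0%, 21.9%, 7.02% and 14.7% of the same classes. With classes taken from the fit without vegetal replicate 2, the shares lower in the egg were 11.9%, 30.4%, 55.1% and 79.0%, and those higher in the egg 12.4%, 13.6%, 16.3% and 12.3%. Egg, stage 18, Cerberus-Short and morpholino comparisons share the 9 stage 11 controls. Their log2 differences use no explant array, but their estimate of spread does. The vegetal against cap calls used the same estimate, and a small spread favours a call in each comparison. Members are thus more readily called than all probe sets tested, and the part of this in the shares was not tested.

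Vegetal-lower probe sets showed a like gradient, again with a change in level. Their median cap log2 level was 7.81, 7.87, 8.84 and 9.43 from the smallest class to the largest, against 6.16 over all tested. Of the 1025, 243 were lower in the egg (23.7%) and 155 were higher (15.1%). Without vegetal replicate 2 the share higher in the egg was 8.89% (20 of 225), below the background. By class, the share lower in the egg was 17.1% of 590, 27.2% of 320, 41.7% of 84 and 64.5% of 31. Without vegetal replicate 2 the shares were 25.6% of 82, 56.1% of 82, 75% of 28 and 87.9% of 33, each above the share with that array included.

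Stage 18 embryos gave the later time point. Over all probe sets tested, 14.2% were lower at stage 18 than at stage 11 and 12.2% were higher. Of the 993, 272 were lower (27.4%) and 93 were higher (9.37%), and among the 68 with the largest difference 46 were lower (67.6%) and 6 were higher. Of the 1025, 124 were lower (12.1%) and 145 were higher (14.1%). Without vegetal replicate 2, 19.1% of 225 were higher at stage 18 and 12.9% were lower. From the smallest class to the largest in that fit, 7.32%, 26.8%, 28.6% and 21.2% were higher, and 8.54%, 13.4%, 14.3% and 21.2% were lower. With all arrays the classes differed less, at 13.7%, 14.1%, 14.3% and 22.6% higher and 11.4%, 13.1%, 11.9% and 16.1% lower. A transient pattern, lower both in the egg and at stage 18 than at the gastrula, was found for 75 vegetal-higher (7.55%) and 37 vegetal-lower probe sets (3.61%), against 326 of all tested (2.11%). For 57 vegetal-higher probe sets (5.74%) the level was higher in the egg and lower at stage 18 than at stage 11, against 16 vegetal-lower (1.56%) and 364 of all tested (2.36%). No call in either comparison was made for 399 of the 993 (40.2%) and 473 of the 1025 (46.1%), against 58.5% of all tested.

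**Figure D4:**
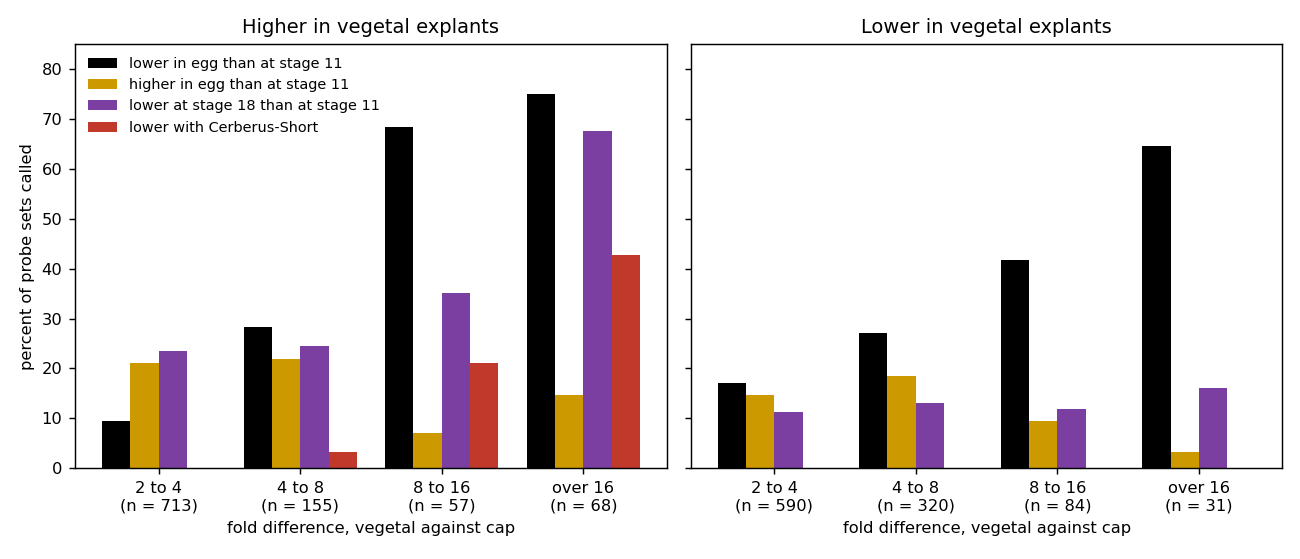
Percent of vegetal-higher (left) and vegetal-lower (right) probe sets called in comparisons of whole embryos and eggs, by the size of the vegetal against cap difference (horizontal axis, with the number of probe sets in each class). Their log2 differences use no explant array, but the estimate of spread does. The share lower in the egg rises from 9.40% to 75% on the left and from 17.1% to 64.5% on the right, and calls lower with Cerberus-Short appear on the left alone.

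Equatorial explants stood between the tissues for most called probe sets. Their mean was intermediate for 871 of the 993 (87.7%) and 841 of the 1025 (82.0%), against 44.3% of all tested. The median position, with the cap at 0% and the vegetal explant at 100%, was 27.6% for the vegetal-higher and 23.9% for the vegetal-lower probe sets. Over all tested it was 21.0%, which is no background, since the difference between cap and vegetal explant can be near 0% there. The median position was 48.0% for the 68 vegetal-higher probe sets above 16-fold and 23.7% for the 31 vegetal-lower ones. Of the 68, 34 (50.0%) were also called higher in equatorial explants than in caps, as were 18 of the 57 between 8-fold and 16-fold, 12 of the 155 and 18 of the 713 below them, against 0.667% of all tested. In the vegetal-lower direction 19 of the 1025 were lower in equatorial explants than in caps (1.85%), against 0.136% of all. Vegetal levels passed above equatorial ones for 320 of the 993, against 2.38% of all tested, and below them for 300 of the 1025, against 2.4%. These equatorial values share the cap or vegetal arrays with the calls and are given as a description.

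One vegetal-higher probe set, chosen after its values were seen, was lower in vegetal than in equatorial explants. Xl.642.1.S1_at was higher in vegetal explants than in caps by 1.61 log2 units and 11.5-fold lower than in equatorial explants (limma, adjusted p = 4.37e-06). For 30 of the 993 the equatorial mean exceeded the vegetal mean, and for 169 of the 1025 (16.5%) it exceeded the cap mean. The mean of whole gastrulae fell inside the interval from cap to vegetal mean for 949 of the 993 (95.6%) and 992 of the 1025 (96.8%), against 63.5% of all tested. The calls favour these shares, since they need an interval of at least 2-fold, and the shares are given as a description.

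Calls lower with Cerberus-Short were most frequent among the vegetal-higher probe sets of largest difference. Of all probe sets tested, 0.304% were lower in Cerberus-Short gastrulae than in controls and 0% were higher (limma, adjusted p under 0.05). The lower calls were 47 probe sets, and all 47 were among the 993 vegetal-higher ones. Outside that set the share was 0%. Among the vegetal-higher probe sets 1 of 713 (0.140%), 5 of 155 (3.23%), 12 of 57 (21.1%) and 29 of 68 (42.6%) were lower, from the smallest class to the largest. The median log2 change over the same classes was -0.09, -0.14, -0.76 and -1.47, against 0.01 over all tested. In the 31 vegetal-lower probe sets above 16-fold the median was 0.31, and 0 of the 1025 were called in either direction. With classes from the fit without vegetal replicate 2 the vegetal-higher shares were 0.541%, 3.20%, 16.3% and 42.0%.

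Of the 12 named vegetal-higher probe sets, 7 were lower with Cerberus-Short. Xl.1108.1.S1_at read 131, 145 and 16.7 in the 3 injected samples against 298 to 1030 in controls, with a median of 610. Xl.183.1.S1_at read 187, 173 and 17.2 against a control minimum of 423, and Xl.5999.1.A1_at 50.0, 56.3 and 19.1 against 173 to 418. No injected value reached the control range in these 3, and replicate 3 was the lowest in each. The pair present in the egg was not called. Xl.7252.1.S1_at read 25.3, 50.5 and 92.5 against 19.4 to 128, and Xl.25780.1.S1_at 303, 572 and 1639 against 186 to 977, where replicate 3 was the highest.

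The Mixer morpholino gave few calls in either set. Over all tested, 0.0194% were higher and 0.013% lower than in controls (limma, adjusted p under 0.05), with 1 vegetal-higher probe set in each direction and 0 of the 1025. These were Xl.7751.1.S1_at, 4.88-fold higher (limma, adjusted p = 0.0499), and Xl.6024.1.S1_at, 5.77-fold lower (limma, adjusted p = 0.00497), named after their values were seen. The median log2 change of the vegetal-lower probe sets was -0.30, -0.59, -0.82 and -0.84 from the smallest class to the largest, against -0.01 over all tested. It rested on replicate 2, an array with a high beta-actin 3' to 5' difference (1.49), where the median over the 1025 was -0.73, against 0.02 in replicate 1.

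Among the vegetal-higher probe sets 16 were lower (1.61%) and 5 higher (0.504%) with the Sox17 morpholinos, against 0.686% and 0.265% of all tested. For the vegetal-lower probe sets the counts were 6 lower (0.585%) and 5 higher (0.488%). Xl.6392.1.A1_at was the only one of the 12 named vegetal-higher probe sets lower with the Sox17 morpholinos. It read 70.4, 108 and 83.8 against 163 to 464 in controls, without overlap (log2 difference -1.46, limma, adjusted p = 0.00234), and it was also lower with Cerberus-Short, at 107, 87.8 and 60.3. With the Mixer morpholino it read 105 and 187 and was not called (limma, adjusted p = 0.522). The 5 vegetal-lower probe sets higher with the Sox17 morpholinos, named after their values were seen, were Xl.11682.1.S1_at, Xl.16543.1.S1_at, Xl.2143.1.S1_at, Xl.3606.1.S1_at and Xl.620.1.S1_at. Of these Xl.2143.1.S1_at differed most between the tissues, at -4.05 log2 units, and rose 1.99-fold (limma, adjusted p = 0.0499).

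Over all 31 arrays the 2 sets lay farthest apart in the vegetal explants. The vegetal and cap arrays chose the members, so the parting of the sets on those arrays follows from the calls. The median log2 level of the vegetal-higher probe sets, relative to the mean of the control gastrulae, was 0.86 and 1.11 in vegetal explants, from -0.67 to -0.45 in caps and from -0.24 to -0.10 in equatorial explants. It was from 0.01 to 0.07 in eggs and from -0.55 to -0.39 at stage 18. For the vegetal-lower probe sets the median was -0.79 and -1.47 in vegetal replicates 1 and 2, from 0.57 to 0.75 in caps and from 0.12 to 0.28 in equatorial explants. Single control gastrulae ranged from -0.45 to 0.25 in that set, with control replicate 7 the lowest. Sets also parted on single arrays of whole embryos. Mixer-MO replicate 2 had medians of 0.54 for the vegetal-higher and -0.73 for the vegetal-lower set, control replicate 7 of 0.41 and -0.45, and stage 18 replicate 4 of -0.55 and 0.39, each farther apart than in either equatorial explant.

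**Figure D5:**
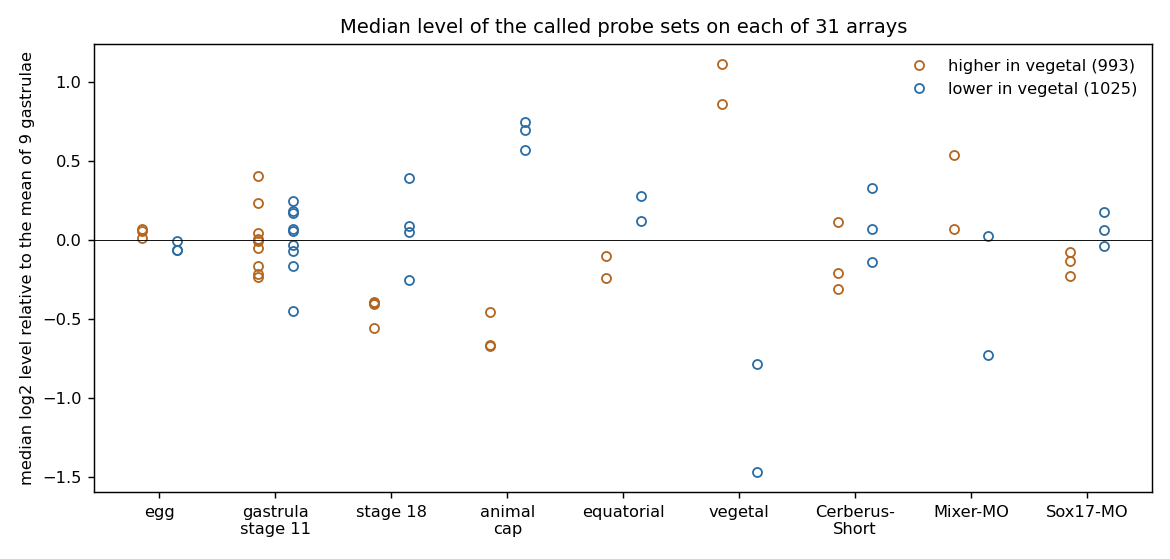
Median log2 level of the 993 vegetal-higher and 1025 vegetal-lower probe sets on each array, relative to the mean of 9 control gastrulae, with 1 circle per array and set. Vegetal explants and caps, whose arrays chose the members, sit on opposite sides of 0. The lowest vegetal-lower medians outside the vegetal explants belong to Mixer-MO replicate 2 (-0.73) and a control (-0.45).

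Probe sets at the limit of the call show what it separates. Xl.17963.1.S1_at, just inside at an adjusted p of 0.0499, read 134 and 191 in vegetal explants and 57.6, 75.9 and 74.1 in caps. Xl.19231.1.S1_at, also just inside, read 264 and 38.4 against 306, 269 and 252. Just outside, Xl.24460.2.A1_at read 477 and 75.9 against 530, 572 and 535, and Xl.25428.1.A1_at read 212 and 258 against 41.3, 87.0 and 28.7. For the 2 with lower vegetal means, vegetal replicate 1 was close to the caps and replicate 2 alone was low.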

How the data were processed

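Per the labels' protocols, 10 µg of total RNA per sample gave probe for an Affymetrix Xenopus array. The deposited checklist names a GeneChip Scanner 3000, scaling to 1500 in GeneChip Operating Software 1v4, and GeneSpring 7.1 for RMA, which is also the tool in the submitters' processing notes. The authors deposited a linear intensity for each probe set on each array. Intensities of 1000 or more had been written with the decimal point 3 places to the left. They were restored by written form (90.5% of 483941 values settled) or else by nearness to settled values of the same probe set. Of 5101 values hidden as a check, 5095 were recovered. After 120 control and 48 undecided probe sets were left out, 15443 were tested. The deposited intensities were taken to log2 without a pseudocount, and levels are given on either scale. Median intensity ran from 65.5 to 77.4 over the 31 arrays, and the number of arrays limits precision.

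One mean per group was fitted over all 31 arrays in 9 groups with limma 3.58.1 in R 4.3.3 (22 residual degrees of freedom, two-sided, Benjamini-Hochberg over all 15443). Calls needed an adjusted p under 0.05 and, for tissue and stage, a 2-fold change. The model was tested on simulated data with independent noise. These held no array or title-letter effect, so the test does not bear on such effects. Which samples came from the same mating is not recorded, and the p-values reflect sample-to-sample spread, which may be technical. That spread is 1 estimate per probe set over all 9 groups. The p-values and SE of the explant comparisons therefore rest mostly on the spread among eggs and whole embryos. Named probe sets are the 12 largest called differences in each direction without overlap, 1 per cluster, and the 4 nearest the threshold; others are named as such. Gene lists were not used, since 0 probe sets matched a gene in the tables here. Members and lists were chosen with earlier results of these data known. Alternatives covered normalization, pseudocount, low filter, fold minimum, arrays fitted, variance trend, weights, blocks, decoding and left-out replicates.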

Additional observations from a re-analysis of the deposited data

Results flagged for a closer look

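Over 52 groups of 4 or 9 arrays examined for a single distant value, 7 were found, where chance gives about 1 in 20. In stage 18 replicate 2, 4 named probe sets lay below the other 3 arrays: Xl.3831.1.S1_at at 46.5, Xl.8143.3.S1_a_at at 102, Xl.14513.1.A1_at at 267 and Xl.5408.1.A1_at at 107. For Xl.14513.1.A1_at the gap was small, since the other 3 arrays read 367, 383 and 366. Stage 18 replicate 2 had a beta-actin 3' to 5' difference of 0.38, against -2.03, -2.21 and -2.45 in the other 3, and its part in these values was not tested. Among control gastrulae, Xl.2511.2.S1_x_at was far below the others in replicate 7, at 425, and Xl.7099.1.A1_at far above them in replicate 9, at 318. The median of the vegetal-higher probe sets in stage 18 replicate 4, at -0.55, lay below the other 3 arrays of its group.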

How the results depend on the processing

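The 993 vegetal-higher and 1025 vegetal-lower calls became 362 and 214 when the vegetal and cap arrays were limited to title letter B, which leaves fewer samples, and 280 and 435 with a fold minimum of 4. Leaving out 1 explant array gave 440 to 1129 vegetal-higher and 225 to 1115 vegetal-lower calls, the lowest without vegetal replicate 2; without animal cap replicate 1 the vegetal-lower count was 667. The other alternatives stayed within 1.5 times in their counts. Quantile normalization gave 945 and 995, and the title letter as a fixed block 825 and 1062 (717 of the 993 and 772 of the 1025 shared). The 5 vegetal and cap arrays alone gave 890 and 897, with 763 of the 993 and 672 of the 1025 shared. No probe set was called in the opposite direction under any of these alternatives. The median difference over all probe sets was 0.10 on the log2 scale and 0.04 after quantile normalization. The replicate block gave 1174 and 1196; same-numbered arrays had residual correlations of -0.05 and -0.14, so the numbers were not taken to pair samples. Of 423 values of the 24 named probe sets under the alternatives, 419 kept their call and 4 lost it, those of Xl.8143.3.S1_a_at and Xl.21546.1.S1_at without vegetal replicate 2 and within letter B; over its alternatives the adjusted p of the first ran from 8.75e-04 to 0.331 and of the second from 6.13e-05 to 0.193. Classes by size without vegetal replicate 2 were added after seeing the data. Signal over background was not analysed here, which limits folds against low intensities.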

Other observations

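Several probe sets of 1 cluster mostly agreed in direction. Each called probe set was paired with every other of its cluster, called or not, and 657 of 834 such pairs shared the sign of the difference. Of 1412 clusters with more than 1 tested probe set, 354 held a call and 112 held 2 or more calls, which ran in 1 direction in 106. In 6 clusters they ran in opposite directions. Xl.7474.1.S1_at read 1618 and 1537 in vegetal explants and 26.2, 28.1 and 27.8 in caps, while Xl.7474.2.A1_at of the same cluster read 799 and 179 against 907, 892 and 863, so that the second call rested on vegetal replicate 2. In another, Xl.24221.1.S1_s_at read 165 and 143 against 3786, 2864 and 3306, while Xl.24221.2.A1_at read 72.9 and 40.9 against 32.4, 25.4 and 19.4, with both vegetal values on the same side of the caps in each. Whether both probe sets of a cluster measure the same transcript is not given in the tables used here. In cluster Xl.25825, Xl.25825.1.A1_at differed by 1.90 and Xl.25825.3.S1_at by -1.04 log2 units. These clusters were chosen after their values were seen.

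Probe sets whose identifier ends in _a_at, _s_at or _x_at, which can match several related transcripts, split differently from plain ones, with no test made. Of 528 ending in _a_at, 84 were vegetal-lower and 19 vegetal-higher, of 341 ending in _s_at 54 and 18, and of 550 ending in _x_at 49 and 24. For the 14024 with the plain ending _at the counts were 838 and 932. Whether this holds without vegetal replicate 2 was not tested.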
